A study of Mus musculus with 8 samples.

Results

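This account covers 50 mouse genes of the cell cycle and the p53 pathway: cyclins and their kinases, kinase inhibitors, E2F and RB proteins, replication licensing factors, mitotic regulators and p53 targets. The genes were chosen by name, and each was read from the probe set that carries its symbol alone, taking the brighter probe set where a gene had more than 1. Of the 50 genes, 47 could be read, among the 19938 gene symbols tested in the series. Cdkn1a, the inhibitor p21, lies on a probe set with several symbols and was not analysed here, and neither were Ccnb1 (cyclin B1) and Trp53 (p53 itself). Cdkn1b, E2f3, Pcna and Top2a had 2 probe sets each.

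The study compared cells carrying full-length NUP98-HOXA9, the deletion mutant delFG1, the deletion mutant delFG2 or an empty vector, with 2 arrays in each of the 4 groups. NUP98-HOXA9 is a leukaemia fusion of a nucleoporin segment with FG (phenylalanine-glycine) repeats to the DNA-binding part of HOXA9. All groups share the C57BL/6 strain, and the kind of cell, the delivery vector and the residues that each mutant lacks are not given in the labels. The labels number the arrays of a group 1 and 2 without saying what the numbers mean. Nothing says that the arrays are separate cultures, so the p-values reflect the spread of these 8 samples, and that spread may be technical.

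Values are log2(intensity + 1) from the deposited table, and the precision is limited by the number of arrays. The median intensity was 80.7 to 83.2 across the arrays. The most similar pair of arrays was the full-length array 2 and the delFG1 array 2, with r = 0.999 across genes and a median gap of 0.0485 (log2) over the 47 genes. The 2 arrays of a group differed by a median of 0.11 to 0.24 over the same genes, most in the empty vector group. By r across genes, the empty vector array 1 was no closer to the other arrays numbered 1 (r at most 0.9949) than to its own group's array 2 (r = 0.9953). Over the 47 genes it was closer to them, with a median gap of 0.119 to 0.138, against 0.236 to its own group's array 2. Results of 2 limma fits are given, 1 with the 4 groups alone and 1 that also holds the array number as a block. A difference was called at a Benjamini-Hochberg adjusted p under 0.05 over all 21789 tested probe sets. The standard error (SE) printed for a difference between groups is from the fit without the block. For a difference between array numbers it is from the fit with the block. Markers of T cells, B cells and stroma summed to 185 to 197, 154 to 165 and 455 to 516 intensity units per array, against 9484 to 10261 for haematopoietic markers (Kit, Cd34, Ptprc, Spi1 and Myb). Markers of neutrophils summed to 27536 to 33952, of macrophages to 6740 to 12961, and of mast cells and basophils to 8188 to 12496.

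As background, a cell enters division when D-type cyclins with CDK4 and CDK6, and then cyclin E with CDK2, phosphorylate the RB proteins and release E2F factors, which switch on genes of DNA replication. INK4 inhibitors (the Cdkn2 genes) block CDK4 and CDK6, and CIP/KIP inhibitors such as Cdkn1b act mainly on CDK2 complexes. Mitosis runs later under cyclin B with CDK1, the aurora and polo-like kinases and the anaphase-promoting complex. The p53 protein answers DNA damage and other stress by switching on arrest and death genes, and Mdm2 is both its target and the ligase that degrades it. In blood progenitors these genes set the pace of self-renewal and differentiation.

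Most of the cell cycle machinery lay at nearly the same level in full-length NUP98-HOXA9 cells and empty vector cells. The median difference over the 47 genes was -0.02 (log2), against 0.02 over all tested probe sets, and 38 of the 47 differed by less than 0.2. Without the block, limma called 0 of the 47 genes, where it called 0.124% of all tested probe sets. In that fit 5 of the 47 had an unadjusted p under 0.05, against 2078 of the 21789 tested probe sets. With the block it called 5 of the 47 (10.6%), against a background of 6.61%. The p53 target Sesn1 was higher (2.18% of all probe sets), and Ccnd1, Cdc25b, E2f2 and Perp were lower (4.43% of all probe sets). That count was 0 without the full-length array 1, 1 (Cdc25b) without the full-length array 2, and 11 without the empty vector array 2, where 10.9% of all probe sets were called. The share of all probe sets called without a full-length array was not counted. No gene of the 47 differed by more than 1 on the log2 scale.

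**Figure D1:**
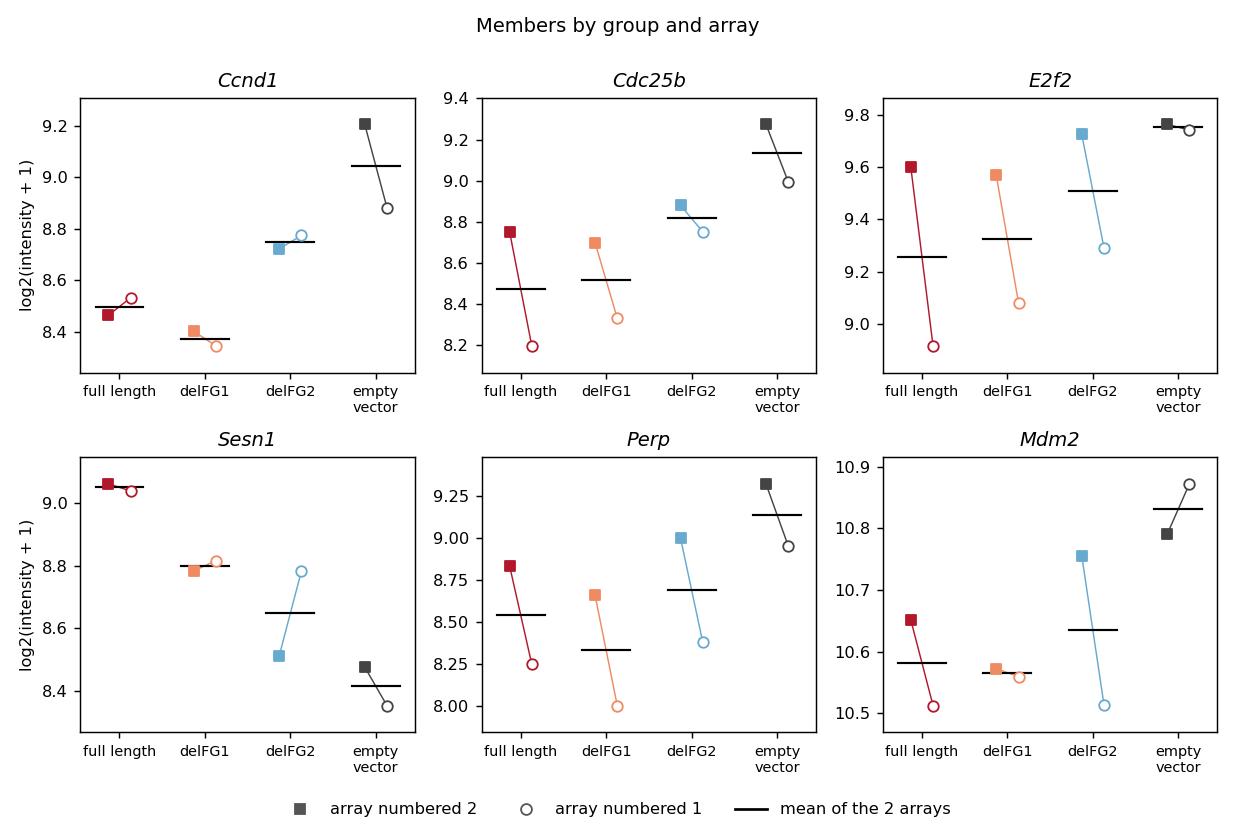
Log2(intensity + 1) of the 5 genes called with the block between full-length NUP98-HOXA9 and the empty vector, and of Mdm2, which was not called. There is 1 panel per gene, with 1 point per array (its shape gives the array number) and a bar at each group mean. Sesn1 sits highest with the full-length fusion, while Ccnd1, Cdc25b, E2f2 and Perp sit highest with the empty vector.

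Among the D cyclins, which link growth signals to CDK4 and CDK6, Ccnd1 (cyclin D1) was the gene that separated the groups. Ccnd1 read 8.53 and 8.46 with the full-length fusion, 8.35 and 8.40 with delFG1, 8.77 and 8.72 with delFG2, and 8.88 and 9.21 with the empty vector, giving array 1 before array 2. All 6 fusion arrays lay below both empty vector arrays, and the mutant delFG1 lay lowest. The full-length fusion differed from the empty vector by -0.55 ± 0.13 (SE), a ratio of 0.685, with a limma adjusted p of 0.228 without the block and 0.0127 with it. The difference was -0.35 among arrays numbered 1 and -0.74 among arrays numbered 2. Ccnd2 and Ccnd3, the other D cyclins, differed by 0.16 and -0.17, and Cdk4 and Cdk6 by 0.03 and 0.09, with none called in either fit.

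Cdc25b encodes a phosphatase that removes inhibitory phosphates from cyclin-dependent kinases before mitosis. Its values were 8.20 and 8.75 with the full-length fusion, 8.33 and 8.70 with delFG1, 8.75 and 8.88 with delFG2, and 8.996 and 9.27 with the empty vector. Every fusion array was below every empty vector array, and array 2 exceeded array 1 in each group. The full-length fusion differed from the empty vector by -0.66 ± 0.20 (SE), with an adjusted p of 0.343 without the block and 0.00429 with it. Without the full-length array 1 it was -0.38 in the fit without the block and -0.51 in the fit with it. Its relatives Cdc25a and Cdc25c differed by -0.06 and -0.01.

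E2f2, an activating E2F factor, read 8.92 and 9.60 with the full-length fusion, 9.08 and 9.57 with delFG1, 9.29 and 9.72 with delFG2, and 9.74 and 9.76 with the empty vector. The fusion arrays overlapped one another and not the empty vector arrays, but those numbered 2 came within 0.20 of the empty vector arrays: the full-length difference was -0.82 among arrays numbered 1 and -0.16 among arrays numbered 2. The pooled difference of -0.49 ± 0.24 (SE) had an adjusted p of 0.575 without the block and 0.0447 with it. It stayed called in 3 of the 8 fits with the block that left out 1 array. In those fits it was -0.24 without the empty vector array 1, -0.31 without the full-length array 1 and -0.75 without the empty vector array 2. Without the block it was -0.15 without the full-length array 1 and -0.84 without the full-length array 2. Of the other E2F and RB genes, E2f1, E2f3, E2f7, E2f8, Rb1 and Rbl1 lay between -0.15 and -0.02 with the full-length fusion relative to the empty vector, none called.

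In the p53 pathway the measured genes went both ways. Sesn1, a stress-induced p53 target that restrains mTORC1 signalling, read 9.04 and 9.06 with the full-length fusion, 8.82 and 8.78 with delFG1, 8.78 and 8.51 with delFG2, and 8.35 and 8.48 with the empty vector. All 6 fusion arrays were above both empty vector arrays, and the full-length arrays were the highest of all. The full-length fusion was higher by 0.64 ± 0.12 (SE), a ratio of 1.55, with an adjusted p of 0.130 without the block and 0.00458 with it.

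Perp, a membrane protein of desmosomes that p53 also induces in dying cells, moved in the opposite direction to Sesn1. Its values were 8.25 and 8.83 with the full-length fusion, 8.001 and 8.66 with delFG1, 8.38 and 8.997 with delFG2, and 8.95 and 9.32 with the empty vector. Within each array number all 3 fusion groups were below the empty vector, although the ranges of delFG2 and the empty vector overlapped across numbers. The full-length difference was -0.60 ± 0.29 (SE), with a limma adjusted p of 0.568 without the block and 0.00441 with it. Without the full-length array 1 the difference was -0.30 in the fit without the block and -0.58 in the fit with it. Mdm2, the p53 ligase, read 10.51 and 10.65 with the full-length fusion against 10.87 and 10.79 with the empty vector, a difference of -0.25 with an adjusted p of 0.496 without the block and 0.107 with it. Ccng1, a p53 target that acts with protein phosphatase 2A, differed by 0.08.

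Markers of several blood cell types moved with these genes. The labels name no cell type, and in bulk RNA fewer cells of a type and less RNA per cell cannot be told apart. With the block, 3 of 5 macrophage markers were lower in full-length NUP98-HOXA9 cells than in empty vector cells: Mrc1 by -1.15, Csf1r by -0.51 and Cd68 by -0.49. The summed intensity of the 5 was 7374 and 8693 with the full-length fusion, 6740 and 8396 with delFG1, 7769 and 10477 with delFG2, and 9946 and 12961 with the empty vector. Of 5 mast cell and basophil markers, Fcer1a (-1.31) and Cpa3 (-0.50) were lower and Ms4a2 (0.48) was higher with the full-length fusion, and their sum was 9951 and 11626 against 11585 and 12496 with the empty vector. Of 5 neutrophil markers, Ltf (-0.75) and Camp (-0.58) were lower, and 2 had positive differences that were not called (at most 0.14). The sum of the 5 was 27536 and 31591 against 31760 and 33169. Of the 5 haematopoietic markers, Cd34 (0.86) and Myb (0.32) were higher and Ptprc (-0.33) and Spi1 (-0.24) lower. With delFG1, 4 of 5 macrophage and 4 of 5 mast cell and basophil markers were lower than with the empty vector in this fit, and with delFG2 1 of 5 and 0 of 5. Also with delFG1, the neutrophil marker Ltf (-0.75) was lower and Elane (0.19) higher. Cd34 (0.61) and Myb (0.31) were higher there and Ptprc (-0.28) lower. The part of such cells in the differences of Ccnd1, Cdc25b, E2f2, Perp and Sesn1 was not tested.

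CDK inhibitors showed no call between the full-length fusion and the empty vector in either fit. Cdkn2a, which encodes p16 and p19ARF and thereby serves both the RB and the p53 pathway, read 6.71 and 6.52 with the full-length fusion, 6.51 and 6.50 with delFG1, 6.50 and 6.65 with delFG2, and 6.17 and 6.44 with the empty vector. Each fusion array was above both empty vector arrays, though the full-length difference was 0.53 among arrays numbered 1 and 0.08 among arrays numbered 2. The pooled 0.31 ± 0.12 (SE) had an adjusted p of 0.482 without the block and 0.186 with it. Cdkn2b (p15), its neighbour in function, differed by 0.37 with limma adjusted p-values of 0.548 and 0.154. Both genes gave low signals, 71 to 103 intensity units for Cdkn2a and 81 to 125 for Cdkn2b. The array medians were 80.7 to 83.2. Over the 47 genes, 4 had all 6 fusion arrays above both empty vector arrays (Cdkn2a, Aurka, Ccng1 and Sesn1), a pattern found in 7.4% of all probe sets. The opposite order was seen in 5 (Ccnd1, Cdc25b, E2f1, E2f2 and Mdm2), against 5.9% of all probe sets.

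The engines of S phase and mitosis varied little with the full-length fusion. The 9 licensing genes, which load and start the replicative helicase, lay between -0.10 (Mcm5) and 0.14 (Mcm6) relative to the empty vector. The 7 mitosis genes lay between -0.20 for Mki67, the proliferation marker Ki-67, and 0.15 for Aurka, the spindle-pole aurora kinase. Mki67 had an adjusted p of 0.545 without the block and 0.118 with it. Cyclins E, A and B and their kinases lay between -0.06 (Ccna2) and 0.04 (Cdk1). Over the 47 genes the half-width of the 95% interval of a difference was 0.16 to 0.66 (median 0.27) without the block. With the block it was 0.12 to 0.31 (median 0.17). These intervals are not adjusted for the number of probe sets tested. A call therefore needed a difference larger than a gene's half-width, and smaller ones were not detectable here.

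**Figure D2:**
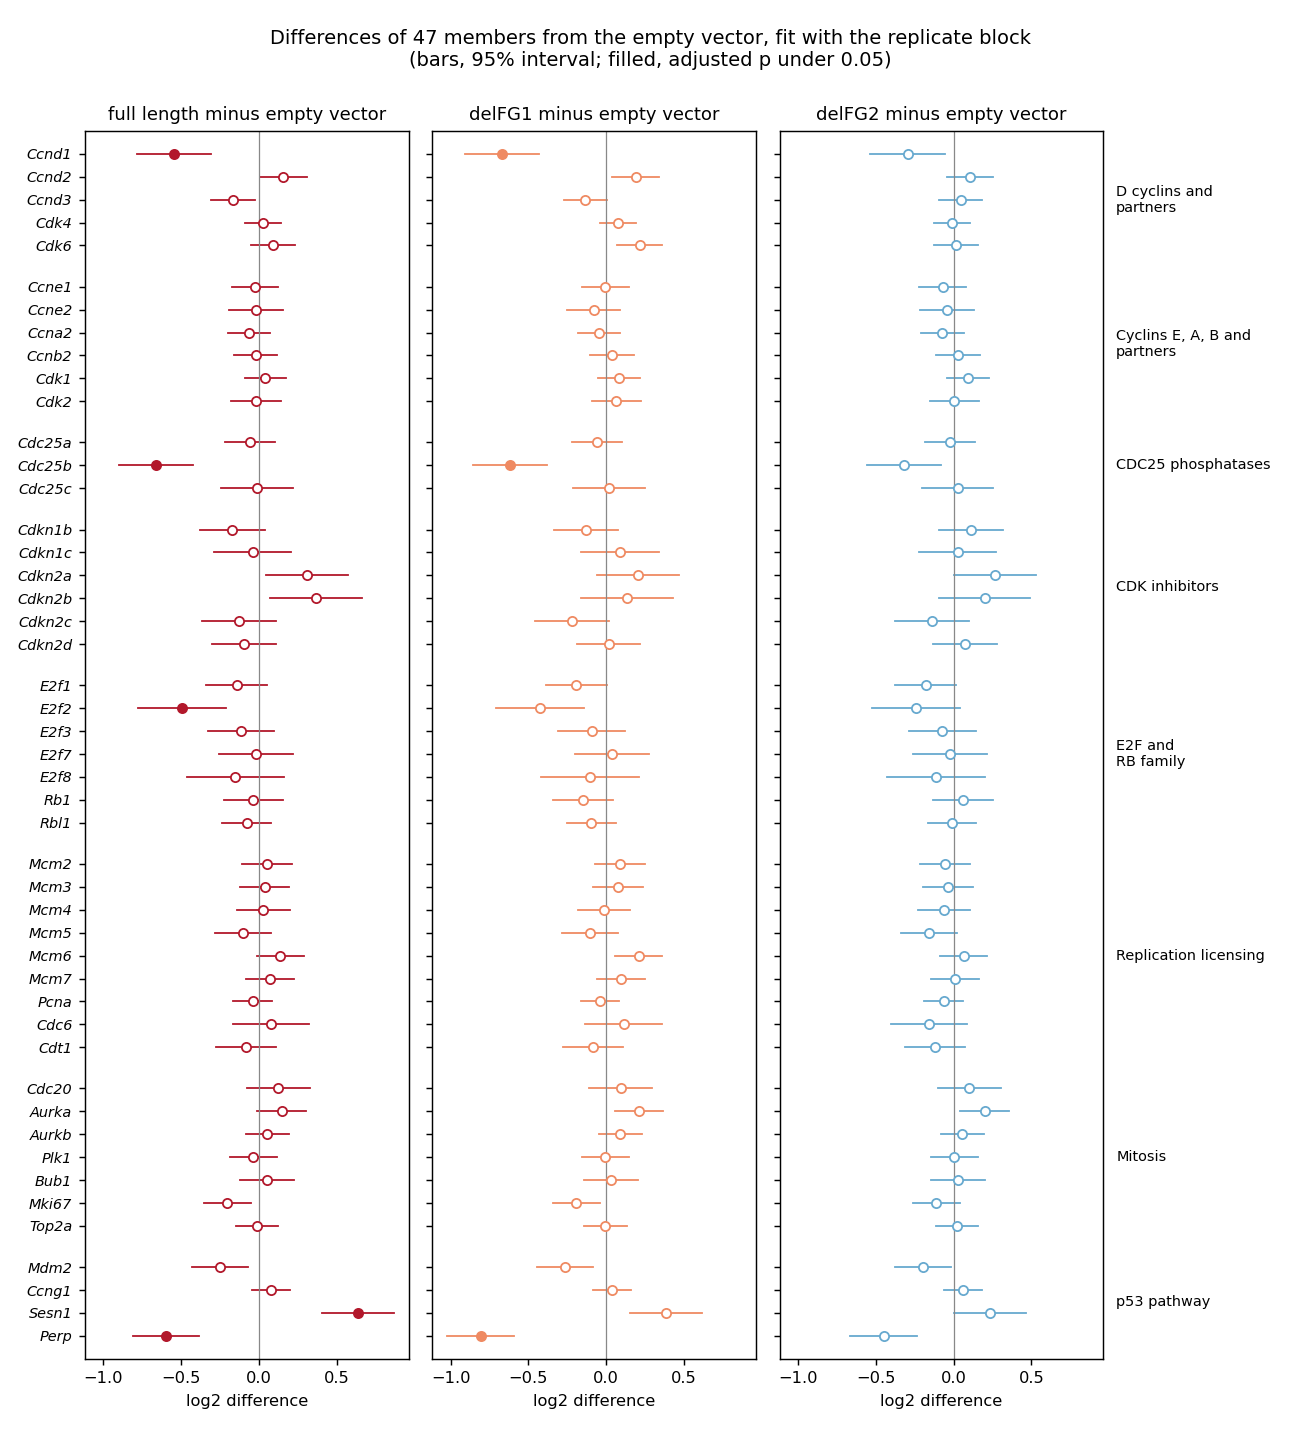
Log2 difference from the empty vector of each of the 47 genes, in order of role, for full-length NUP98-HOXA9, delFG1 and delFG2, with differences called in the fit with the block marked. Most genes lie within 0.2 of 0 in all 3 groups, and Ccnd1, Cdc25b, E2f2, Perp and Sesn1 stand out.

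With delFG1, Perp, Ccnd1 and Cdc25b were lower than with the empty vector in the fit with the block, a comparison that shares its empty vector arrays with the one above. Without the block limma called 0 of the 47 genes (0.129% of all probe sets). In that fit 6 of the 47 had an unadjusted p under 0.05, against 2093 of the 21789 tested probe sets. With the block it called 3 (6.12% of all probe sets), all lower (4.18% of all probe sets). Perp was lower by -0.81 ± 0.29 (SE), with a limma adjusted p of 0.424 without the block and 0.000707 with it. It was lower in both array numbers (-0.95 and -0.66). Without the delFG1 array 1 the Perp difference was -0.48 in the fit without the block. In fits with the block that left out 1 array it ran from -0.93 to -0.68. Ccnd1 differed by -0.67 ± 0.13 (SE; adjusted p = 0.114 without and 0.00378 with the block), and Cdc25b by -0.62 ± 0.20 (SE; 0.344 and 0.00574). Sesn1 at 0.39 (adjusted p = 0.0573 with the block) and E2f2 at -0.43 (0.0864) missed the threshold. The count with the block was 10 without the empty vector array 2 (10.4% of all probe sets) and 5 without the empty vector array 1.

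The mutant delFG2 gave smaller differences from the empty vector, and no gene of the 47 was called by limma in either fit. The background was 0.00459% of all probe sets without the block and 0.505% with it. Without the block 1 of the 47 genes had an unadjusted p under 0.05, against 965 of the 21789 tested probe sets. Its leading genes with the block were Perp at -0.45 (adjusted p = 0.0832), Cdc25b at -0.32 (0.280), Aurka at 0.20 (0.307), Ccnd1 at -0.30 (0.326) and Mdm2 at -0.20 (0.406), while Sesn1 differed by 0.23 (0.455). Without the empty vector array 2 the fit with the block called 6 of the 47, against 4.89% of all probe sets.

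The mean of the 3 fusion groups against the empty vector gave 0 calls among the 47 genes without the block (0.0964% of all probe sets) and 5 with it (7.21% of all probe sets, 2.44% higher and 4.77% lower). They were Perp at -0.62 (adjusted p = 0.398 without and 0.00104 with the block), Cdc25b at -0.53 (0.277 and 0.00395), Ccnd1 at -0.50 (0.134 and 0.00582), Sesn1 at 0.42 (0.175 and 0.0134) and E2f2 at -0.39 (0.541 and 0.0492). An F-test for any difference among the 4 groups called 0 without the block (0.0964% of all probe sets) and Perp, Cdc25b, Ccnd1 and Sesn1 with it (4.52%). With the block, more of the 47 were called in both tests without the empty vector array 2, and fewer in the F-test without either full-length array. The shares of all probe sets in those fits were not counted. E2f2 stayed called for the mean in 2 of 8 fits with the block that left out 1 array. Without the empty vector array 1 the mean difference was -0.13 for E2f2 (adjusted p = 0.692) and 0.31 for Sesn1 (0.169).

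Neither mutant differed from the full-length fusion in any of the 47 genes at the threshold. For delFG1 against the full-length fusion limma called 0 genes in both fits (0.00918% of all probe sets without the block and 0.078% with it). Without the block 0 of the 47 had an unadjusted p under 0.05, against 451 of the 21789 tested probe sets. Of the 47 differences, 44 were smaller than 0.2. Sesn1 had the smallest p, with a difference of -0.25 and an unadjusted p of 0.0686 without the block and 0.0360 with it. Perp (-0.21), Cdkn2b (-0.23), Cdk6 (0.12) and Rb1 (-0.12) followed.

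For delFG2 against the full-length fusion the counts were also 0 in both fits (0.0275% of all probe sets without the block and 0.468% with it). Sesn1 led again, at -0.40, with an unadjusted p of 0.00919 without the block, and adjusted p-values of 0.9995 without it and 0.192 with it. The difference was -0.26 among arrays numbered 1 and -0.55 among arrays numbered 2. Cdc25b (0.34), Cdkn1b (0.28), Ccnd1 (0.25) and Ccnd3 (0.21) were the next, with adjusted p-values of 0.329, 0.374, 0.553 and 0.297 with the block.

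Between the mutants, delFG2 against delFG1, limma called 0 of the 47 genes in both fits, with 1 (Ccnd1) at an unadjusted p under 0.05 without the block. Over all probe sets it called 0% without the block, where 683 had an unadjusted p under 0.05, and 0.537% with it. Ccnd1 was 8.77 and 8.72 with delFG2 and 8.35 and 8.40 with delFG1, a difference of 0.37 with an adjusted p of 0.261 with the block. The groups did not overlap. Perp differed by 0.36 (0.214), Cdc25b by 0.30 (0.432), Cdk6 by -0.20 (0.351) and Ccnd3 by 0.18 (0.433).

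More of these genes were called by array number, a contrast of 4 arrays with 4, than by fusion. In the fit with group and number, limma called 15 of the 47 genes (31.9%) between arrays numbered 2 and arrays numbered 1, against 11.2% of all probe sets. Of the 9 licensing genes 6 were lower in arrays numbered 2, and of the 6 CDK inhibitors 3 were higher. Of the 47 genes 7 were higher (14.9%, against 6.43% of all probe sets) and 8 lower (17%, against 4.75%). Since the numbers are not explained in the labels, these differences stand as differences between 2 sets of 4 arrays, each with 1 array of every group. Fewer of the 47 were called when any 1 fusion array was left out. The share of all probe sets called in those fits was not counted, so a loss particular to these genes cannot be told from a general one.

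**Figure D3:**
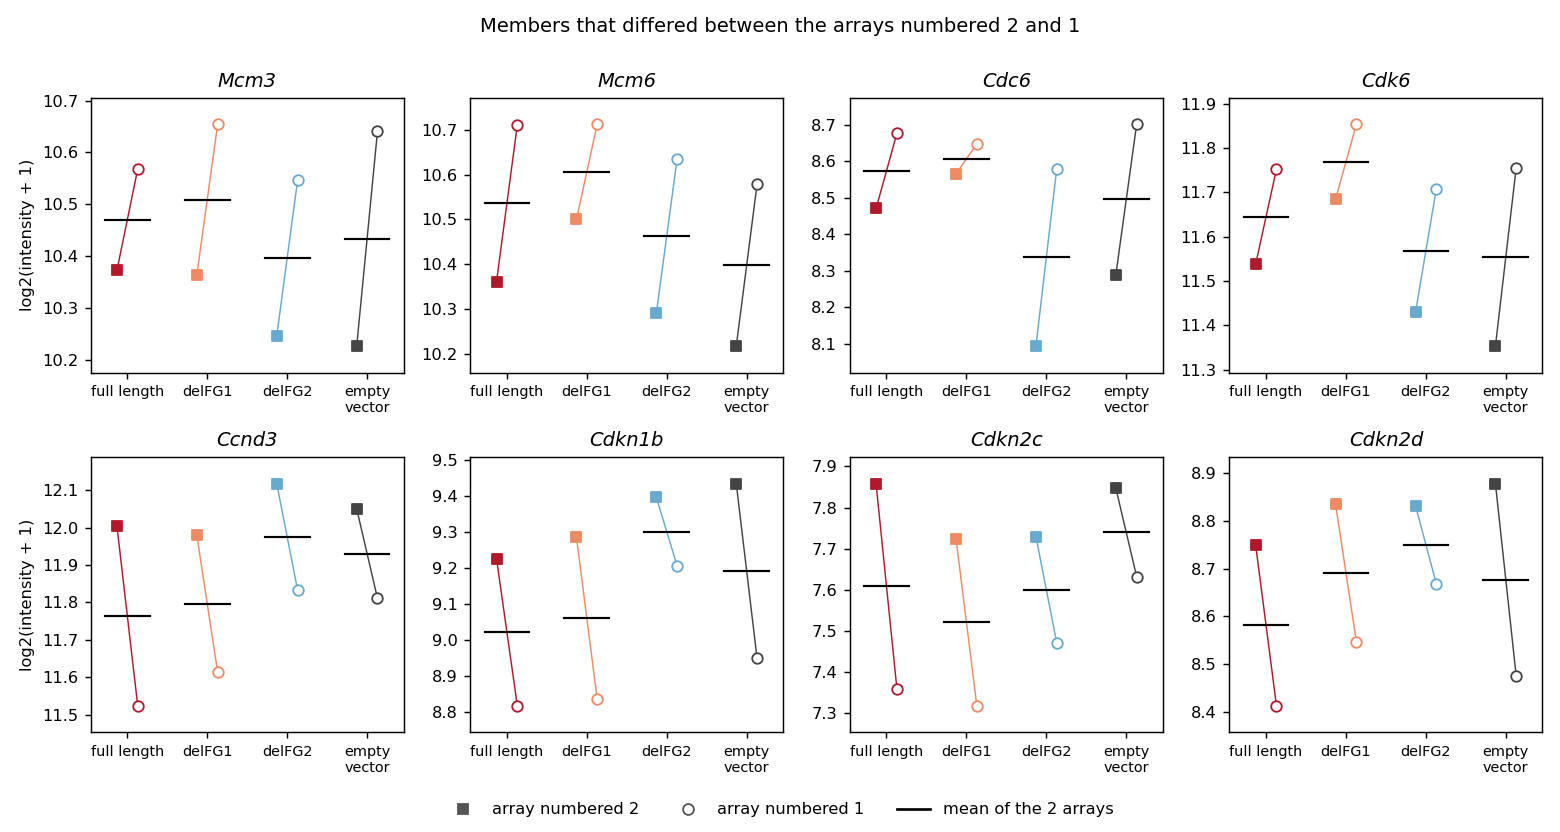
Log2(intensity + 1) of genes called between arrays numbered 2 and arrays numbered 1, with lines joining the arrays of 1 group. Array 2 is drawn to the left of array 1. In all 4 groups licensing genes such as Mcm6 lie lower in array 2 than in array 1, and CDK inhibitors such as Cdkn1b lie higher.

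Over the 9 licensing genes the median difference was -0.19, against 0.01 over all probe sets, and 4.75% of all probe sets were called lower. Mcm6, a subunit of the MCM helicase, read 10.36, 10.50, 10.29 and 10.22 in arrays numbered 2 of the full-length, delFG1, delFG2 and empty vector groups, against 10.71, 10.71, 10.64 and 10.58 in arrays numbered 1. The 2 sets did not overlap, and the difference was -0.32 ± 0.05 (SE; limma adjusted p = 0.00231). Its partners in the helicase followed, Mcm3 at -0.30 (adjusted p = 0.00403), Mcm4 at -0.20 (0.0385), Mcm7 at -0.19 (0.0299) and Mcm2 at -0.19 (0.0414). Cdc6, which loads the helicase onto origins, read 8.47, 8.56, 8.09 and 8.29 in arrays numbered 2 against 8.68, 8.65, 8.58 and 8.70 in arrays numbered 1, a difference of -0.30 (0.0346). Mcm5 (0.03), Pcna (0.00), the sliding clamp, and Cdt1 (-0.14) were not called.

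E2F factors bind promoters of many such genes, so the promoter letters of the licensing genes are shown here. Promoter windows of 250 bases before to 50 after each gene's start were read from RefSeq on GRCm38.p6, where 37 of the 47 genes matched 44 windows. E2F letters (TTTGGCGC, TTTCCCGC, TTTGCCGC or TTTCGCGC, on either strand, overlaps allowed) were found in 66.7% of the licensing windows (6 of 9) and in 0 of 6 mitosis windows, against 2.26% of all 32851 windows. The CHR letters TTTGAA, named for the cell cycle genes homology region of late cell cycle genes, were found in 83.3% of the mitosis windows (5 of 6) and 11.1% of the licensing windows, against 17.9% of all windows. A match describes the letters only, and binding was not measured here. Below, 5′ to 3′ on the gene's strand, capitals mark the matched letters, first in Mcm6 (chr1:128359715-128359825, minus strand), Mcm7 (chr5:138172011-138172058, minus strand), Mcm5 (chr8:75109346-75109397, plus strand) and Cdc6 (chr11:98908003-98908050, plus strand) for E2F, then in Cdc20 (chr4:118437344-118437371, minus strand) for CHR.
Mcm6: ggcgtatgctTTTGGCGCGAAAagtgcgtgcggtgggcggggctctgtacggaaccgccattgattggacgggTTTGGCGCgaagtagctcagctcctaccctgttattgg
Mcm7: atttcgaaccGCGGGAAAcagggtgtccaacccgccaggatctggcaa
Mcm5: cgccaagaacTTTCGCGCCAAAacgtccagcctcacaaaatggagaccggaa
Cdc6: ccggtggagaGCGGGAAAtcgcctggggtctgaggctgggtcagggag
Cdc20: acagttgggtTTTGAAggagccaatgaa
Of the licensing genes lower in arrays numbered 2, Mcm3, Mcm6, Mcm7 and Cdc6 hold E2F letters and Mcm2 holds none, and Mcm4 had no window. Of those not called, Mcm5 and Cdt1 hold them and Pcna does not. Cdc20, the activator of the anaphase-promoting complex, was not called either (-0.07).

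CDK inhibitors had positive differences in all 6 measured genes, as did 56.1% of all probe sets, with a median of 0.25 and 3 called higher, against 6.43% of all probe sets. Cdkn1b (p27) read 9.23, 9.29, 9.40 and 9.43 in arrays numbered 2 of the full-length, delFG1, delFG2 and empty vector groups, against 8.82, 8.83, 9.21 and 8.95 in arrays numbered 1. Every array numbered 2 was above every array numbered 1, by 0.38 ± 0.07 on average (SE; adjusted p = 0.00423). The INK4 genes Cdkn2c (p18) and Cdkn2d (p19INK4D) differed by 0.34 (0.0155) and 0.30 (0.0153), also with no overlap. Cdkn2b (0.21), Cdkn1c (0.08) and Cdkn2a (0.05) were not called.

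The D cyclins parted by array number. Ccnd3 (cyclin D3) read 12.004, 11.98, 12.12 and 12.05 in arrays numbered 2 of the same groups, against 11.52, 11.61, 11.83 and 11.81 in arrays numbered 1, a difference of 0.34 ± 0.05 (SE; adjusted p = 0.00103) with no overlap. Cdk6 read 11.54, 11.68, 11.43 and 11.35 in arrays numbered 2 against 11.75, 11.85, 11.71 and 11.76 in arrays numbered 1, a difference of -0.27 ± 0.05 (SE; 0.00414). Ccnd2 (cyclin D2) was lower by -0.20 (0.0202). Perp (0.56, adjusted p = 0.000749), E2f2 (0.41, 0.0161) and Cdc25b (0.33, 0.0178), which the fit with the block placed lower in full-length cells, were higher in arrays numbered 2. Mitosis genes and cyclins E, A and B with their kinases had 0 called in this limma fit, with medians of -0.04 and 0.06. Non-overlap of the 4 and 4 arrays was seen in 4 genes upward (Ccnd3, Cdkn1b, Cdkn2c and Cdkn2d), against 6.4% of all probe sets. Downward it was seen in 8 (Ccnd2, Cdk4, Cdk6, Mcm3, Mcm4, Mcm6, Mcm7 and Cdc6), against 5.15%.

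Markers of several blood cell types moved with the array number as well. Of 5 macrophage markers, 3 were higher in arrays numbered 2 (Mrc1 by 0.59, Cd68 by 0.38 and Adgre1 by 0.31). Of 5 neutrophil markers, Camp (0.67), Ltf (0.49) and S100a8 (0.20) were higher and Mpo (-0.13) was lower, and 3 of 5 mast cell and basophil markers were higher. The haematopoietic markers Cd34 (-0.50), Kit (-0.35) and Myb (-0.20) were lower and Spi1 (0.27) was higher. Their part in the shifts of the Mcm and Cdkn genes was not tested.

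The shift of the licensing genes between the arrays of a group was of unlike size in the 4 groups. The median difference, array 2 minus array 1, was -0.09 with the full-length fusion, -0.12 with delFG1, -0.17 with delFG2 and -0.36 with the empty vector. All 9 genes were below 0 in the empty vector group and 7 of 9 in each fusion group. The E2F and RB genes had medians of 0.21, 0.10 and 0.04 in the full-length, delFG1 and delFG2 groups and -0.27 in the empty vector group. With 1 pair of arrays in each group, a difference between groups in this shift was not tested.

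**Figure D4:**
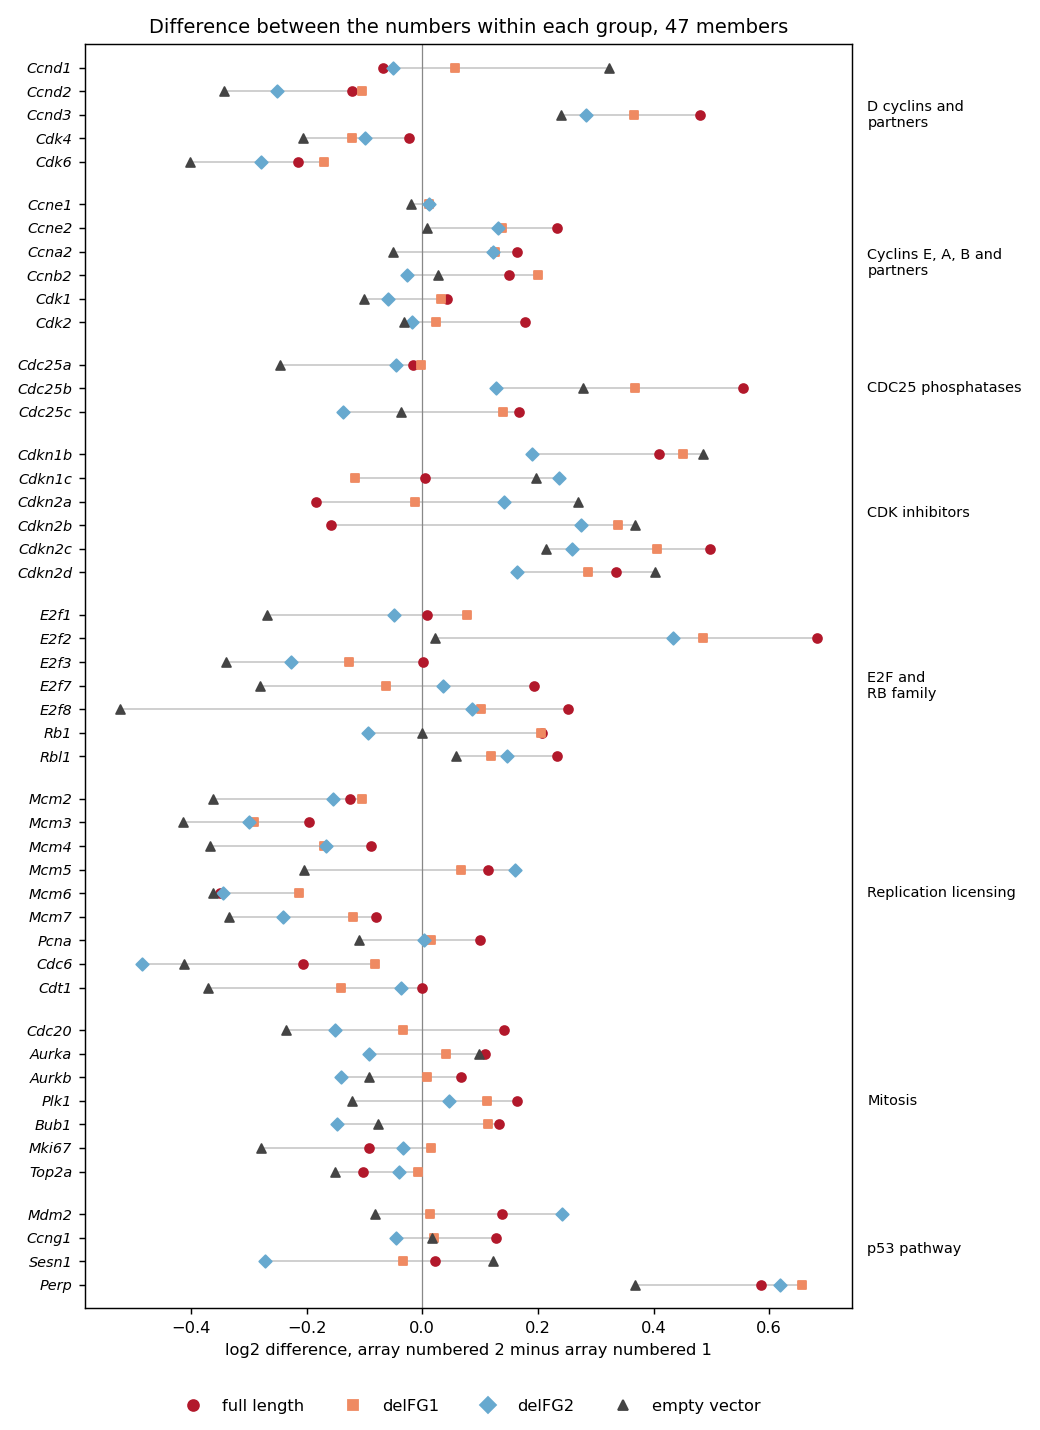
Log2 difference of array 2 minus array 1 within each group for the 47 genes by role, with 1 point per gene and group. A grey line spans the groups of each gene. By the median, which is not drawn, licensing genes lie lowest in the empty vector group (-0.36). The median of the E2F and RB genes is above 0 in each fusion group and below 0 with the empty vector.

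Further genes of the same pathways, in 4 lists, had few calls with the full-length fusion. Without the block limma called 0 of them against the empty vector. With the block it called 3, where it called 6.61% of all probe sets: Rfc4 of 26 replication genes, a subunit of the clamp loader, at 0.25 (adjusted p = 0.0403), Cks1b of 24 regulators, a CDK-binding subunit, at 0.26 (0.0350), and Plk3 of 23 p53 genes, a stress-responsive polo-like kinase, at -0.63 (0.00226). The 26 replication genes had a median of 0.12, with 23 positive (88.5%), beside a median of 0.02 and 56.6% positive over all probe sets. None of the 25 further mitosis genes was called in either fit, and Foxm1, which drives mitotic genes, differed by -0.22. With delFG1 the fit with the block called Fen1, the flap endonuclease, at 0.35 (0.0383), Cks1b at 0.35 (0.00828) and Plk3 at -0.62 (0.00200), and with delFG2 it called 0. For the mean of the 3 fusion groups it called 5: Fen1 (0.27), Rfc4 (0.19), Cks1b (0.28), Plk3 (-0.50) and Ddit4, a stress-induced inhibitor of mTORC1 (0.42, 0.0466).

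Array number again gave more calls among these further genes than the fusion did, beside 6.43% of all probe sets called higher and 4.75% called lower. Of the 26 replication genes 8 were lower in arrays numbered 2, with a median of -0.14, among them the polymerase subunits Pola1 (-0.30, adjusted p = 0.0110) and Pole (-0.31, 0.0139). The others were Gins1, Gins3, Orc2, Orc6, Rpa2 and Fen1, between -0.31 and -0.19. Of the 25 mitosis genes 1 was lower, Espl1, the protease separase, at -0.40 (0.00212). Of the 24 regulators, Lin37 (0.36) and Lin54 (0.22), subunits of the DREAM complex, were higher and the damage kinases Atm (-0.46) and Atr (-0.44) were lower. Of the 23 p53 genes, Trp53inp1 (0.42), Plk3 (0.37) and Fas (0.31) were higher, and Plk2 (-0.61) and Gadd45a (-0.32) were lower.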

How the data were processed

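RNA was purified on RNeasy columns and biotin-labelled with a whole-transcript kit, per the labels' protocols. The authors deposited 1 table of linear intensity values, already on a common scale across arrays; the normalisation method was not stated in the labels. Of its 28853 probe sets, 21789 carry 1 gene symbol in the platform annotation supplied with the data and were tested.

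Values were analysed as log2(intensity + 1) with limma 3.58.1 in R 4.3.3 (lmFit, eBayes with an intensity trend), two-sided, over all 8 arrays. The fit without a block has 4 residual and 4.62 prior degrees of freedom, and the fit with the array number as a block has 3 and 7.78. Same-numbered arrays deviated together from their group means in all 6 pairs of groups (r between 0.401 and 0.640), so the numbers, which come from the labels, were treated as pairing the samples. Comparisons with the empty vector share its 2 arrays.

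The text names each of the 50 genes called in either fit, then those of smallest p, up to 5 a comparison; genes that illustrate a role beyond these were chosen after their values were seen. Further lists give counts and up to 2 examples, with the remaining called genes named likewise. The genes and lists were chosen with earlier results of these data known. The fits were tested on simulated data. Alternatives were centring, quantile normalisation, a pseudocount of 16, a filter on low probe sets, no intensity trend, the 2 groups alone, the mean of a gene's probe sets, and leaving out each array.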

Additional observations from a re-analysis of the deposited data

Results flagged for a closer look

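Of the 47 genes, 7 shifted from array 1 to array 2 in the same direction in all 3 fusion groups and oppositely with the empty vector. That share, 14.9%, was near the 12.4% of all probe sets, so the count is not particular to these genes. With 1 pair of arrays in each group this contrast between groups was not tested. E2f8, an atypical E2F repressor, showed the widest contrast: array 2 minus array 1 was 0.25 with the full-length fusion, 0.10 with delFG1, 0.09 with delFG2 and -0.52 with the empty vector. Set as the empty vector's shift minus the mean shift of the fusion groups, the contrast was -0.67 for E2f8, -0.32 for the helicase subunit Mcm5, -0.23 for the polo-like kinase Plk1 and -0.21 for Mdm2. It was -0.19 for cyclin A2 (Ccna2), -0.15 for the sliding clamp Pcna and -0.031 for cyclin E1 (Ccne1). The calls that appear without the empty vector array 2 include E2f8, Mcm5 and Mdm2 among these genes. Those fits keep the empty vector array 1 alone in its group. Such calls draw on the same values as the contrast and are not a separate observation.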

How the results depend on the processing

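Without the block, the alternatives of scaling, pseudocount, filtering, trend, samples in the fit and probe sets, and each left-out array, gave 0 called genes of the 47 in all 6 comparisons between groups, in the mean of the fusion groups and in the F-test. Adding the replicate block gave 5 for the full-length fusion, 3 for delFG1 and 0 for delFG2 against the empty vector, 5 for the mean and 4 for the F-test, and 0 in the 3 comparisons among fusion forms. For these comparisons and tests no alternative except leaving out each array was run with the block. The calls with the block were therefore not checked under the other alternatives. With the block and 1 array left out, the counts ran from 0 to 11 for the full-length fusion, 2 to 10 for delFG1 and 0 to 6 for delFG2 against the empty vector, 4 to 11 for the mean and 2 to 10 for the F-test. Where a group keeps 1 array, that array is assumed to vary like the other groups. Shares of all probe sets in these fits were counted only without the empty vector array 2, for the fusion forms against the empty vector. Elsewhere a change in calls particular to the 47 genes cannot be told from a general one. Between arrays numbered 2 and 1 the count of 15 was 6, 8 or 9 without a fusion array and 14 without an empty vector array, and ran from 11 to 16 under the other alternatives, and without the intensity trend Ccnd2, Mcm2, Mcm4 and Mcm7 were no longer called. The causes of these changes were not tested. The table holds no background signal, so what low signals limit is unknown.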
